A study of Mus musculus with 4 samples.

Results

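The tripartite motif (Trim) genes encode proteins with a RING finger, 1 or more B-boxes and a coiled coil, and most of them act as ubiquitin ligases. Members were taken as every mouse symbol that begins with Trim and a digit and that had at least 50 unique molecular identifiers (UMIs, 1 per captured RNA molecule) over 4 single-cell libraries. Of 31053 features, 68 had such a symbol and 48 passed the minimum. The 20 genes below it reached at most 45 UMIs (Trim42, followed by Trim40 with 38 and Trim38 with 28), and Trim61 had 0. The members nearest to the limit from above were Trim72 with 53 UMIs and Trim43c with 69.

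The study sorted living CD45+ cells, that is immune cells, from mouse skin and from transplanted skin tumors and sequenced their RNA 3' ends cell by cell. Control skin came from mice that received no tumor cells, and all 4 samples are labelled C57/BL6. The tumors grew for 2 weeks from 2323 cells, a single line derived from a genetically engineered mouse skin tumor model, injected into the flank of female and male C57BL/6 mice aged 8 to 10 weeks. All 4 libraries held Y-linked RNA (Ddx3y, Eif2s3y and Uty, 7.71 to 8.77 UMIs per 10,000 in control skin and 2.87 to 3.70 in tumors) and at most 0.0053 of Xist, as male cells do. The mice carried no engineered allele by their labels. Each group held 2 libraries, control skin 1 and 2 and 2323 tumor 1 and 2, so an exact permutation test of a single value cannot give a p below 0.333. Whether both tumors, or both skins, were handled on the same day was not given in the sources used here.

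The libraries held 2258 to 5176 cells and 34893543 to 73904272 UMIs, and 12848 cells passed the quality filters, of which 8327 (64.8%) entered 1 of 15 classes by marker genes. The gates used the marker genes, so the levels of these check the gates and not the identity of the cells: each class ranked first for its own markers, except that mast cells exceeded type 2 innate lymphoid cells (ILC2) in Il1rl1, CD4 T cells exceeded CD8 T cells in Trac and dendritic epidermal T cells (DETC) exceeded dermal gamma delta T cells in Trdc. A total of 11 classes had at least 10 cells in each library. Langerhans cells, DETC, dermal gamma delta T cells and ILC2 were too few in tumors, and their levels are given for control skin only. At most 7 cell barcodes were shared by a pair of libraries. Over all gated cells the genes of tissue dissociation stress (Fos, Jun, Egr1, Hspa1a and Hspa1b) moved with the groups, at 22.4 and 18.7 UMIs per 10,000 in control skin 1 and 2 and 58.9 and 54.4 in 2323 tumor 1 and 2, and their part in the results on Trim genes was not tested.

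Several Trim genes are known targets of interferon. Type I and type III interferons act through factors that bind the interferon-stimulated response element (ISRE) before a gene, and type II interferon acts through the GAS element. Trim25 attaches ubiquitin to the RNA sensor RIG-I (Ddx58), Trim21 is a cytosolic antibody receptor, Trim14 is an adaptor at the mitochondrial antiviral protein Mavs, and the rodent Trim30 genes form a family related to the retroviral restriction factor Trim5. Other branches carry a bromodomain and act on chromatin (Trim24, Trim28 and Trim33), NHL repeats (Trim2, Trim3, Trim32 and Trim71), a membrane anchor (Trim13 and Trim59) or a COS box that binds microtubules (Trim36, Trim46 and Trim54).

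A single cluster on chromosome 7 carried 10 Trim symbols, 9 of them members, within 289 kb (GRCm38, 104218793 to 104507849), in the order Trim6, Trim34a, Trim5, Trim12a, Trim12c, Trim30b, Trim30c, Trim30a and Trim30d. Promoter windows of RefSeq (GRCm38.p6, 250 bases before to 50 bases after a start) were found for 36 of the 48 members, 49 windows in all. The ISRE letters GAAANNGAAA, searched on both strands, stood in 3.44% of all 32851 windows (1131), in 10 of the 49 windows of members and in 7 of the 10 windows of the cluster. Trim30a has more than a single window in the cluster, each with a match. Paralogs share window sequence, so the cluster windows are not separate observations. The GAS letters TTCNNNGAA stood in 8.30% of all windows, in 3 of 49 of members and in 1 of the cluster. The stretches below run from 60 bases before to 50 bases after the start, 5' to 3' on the strand of the gene, with the match to the ISRE letters in capitals. They show the 6 cluster genes called between tumor and control skin (Trim30b among them without a match), Trim5 for its likeness to Trim12a, and Trim44, a gene of another chromosome that differed in CD4 T cells. They lie at chr7:104244397-104244506 on the plus strand, chr7:104288057-104288166, chr7:104315446-104315555, chr7:104353300-104353409, chr7:104358597-104358706, chr7:104465144-104465253, chr7:104507800-104507909 and chr2:102400851-102400960, the last 7 on the minus strand.
Trim34a: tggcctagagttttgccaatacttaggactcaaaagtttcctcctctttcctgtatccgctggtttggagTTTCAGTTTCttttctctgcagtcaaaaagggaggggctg
Trim5: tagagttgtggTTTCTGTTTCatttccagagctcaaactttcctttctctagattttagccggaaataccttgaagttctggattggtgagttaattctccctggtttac
Trim12a: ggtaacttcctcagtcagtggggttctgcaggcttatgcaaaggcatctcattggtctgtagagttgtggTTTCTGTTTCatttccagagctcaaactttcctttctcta
Trim12c: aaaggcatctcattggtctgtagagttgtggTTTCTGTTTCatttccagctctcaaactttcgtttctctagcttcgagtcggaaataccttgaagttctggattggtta
Trim30b: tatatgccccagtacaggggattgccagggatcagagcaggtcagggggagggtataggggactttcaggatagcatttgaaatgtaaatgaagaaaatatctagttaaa
Trim30a: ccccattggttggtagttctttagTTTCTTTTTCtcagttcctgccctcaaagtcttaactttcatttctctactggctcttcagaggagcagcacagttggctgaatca
Trim30d: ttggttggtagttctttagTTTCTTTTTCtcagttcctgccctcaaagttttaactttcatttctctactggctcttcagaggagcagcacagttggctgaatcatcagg
Trim44: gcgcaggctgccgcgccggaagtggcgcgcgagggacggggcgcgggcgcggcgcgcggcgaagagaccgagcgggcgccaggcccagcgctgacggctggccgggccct

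The Trim5 and Trim12a windows shared an unbroken run of 241 of 300 bases and the Trim30a and Trim30d windows a run of 118, while Trim30a and Trim34a shared no run over 8. The Trim30 genes, and Trim5, Trim12a and Trim12c, are paralogs. Their transcripts were not compared here, and how reads that match more than 1 gene were counted is not given in the sources used here, so their separate counts are uncertain. Matches to the ISRE letters also stood in the windows of Trim21, Trim26 and Trim2, and none stood in those of Trim30b, Trim30c, Trim6, Trim25, Trim44 and Trim56. Of the 6 cluster genes that rose in tumors, 5 had a match in their window and Trim30b did not. The windows of Trim30b and Trim44 lie inside the genes as annotated, however. Their outermost starts on the minus strand are at 104369884 and 102407828, and the bases before those starts were not searched. These matches describe letters only; binding was not measured.

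The 48 members held 241949 UMIs, 11.4 per 10,000 of all UMIs. Trim25 alone held 24.5% of them (59211 UMIs), followed by Trim30a (23680), Trim33 (16079), Trim30d (9592), Trim36 (9243), Trim26 (9040), Trim35 (8293), Trim44 (8207), Trim24 (7199) and Trim12a (7165). A total of 36 members reached 1000 UMIs. The levels below are UMIs per 10,000 UMIs of a class in a library; they count 1 end per molecule and were not divided by gene length. Trim47 and Trim65 overlap each other on the same strand, as do Trim17 with Hist3h2a and Trim16 with Fbxw10, and reads there cannot be assigned with certainty. Trim14, Trim28, Trim41 and Trim46 overlap Nans, Zbtb45, Rack1 and Krtcap2 on the opposite strand, and whether the counting used strand is not given in the sources used here. Trim29 and Trim54, known from epithelium and muscle, had 71.7% and 72.1% of their UMIs in cells with keratin or collagen transcripts that were left out as not immune, Trim71 52.5% and Trim2 37.2%.

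In control skin some Trim genes stood clear in a single cell class, while for most the leading class met libraries of another. The order of the classes was not tested. Trim25 was highest in monocytes (5.36 and 6.12), macrophages (5.13 and 5.83) and cDC2 (4.26 and 4.44). Its level was 0.437 and 0.385 in natural killer (NK) cells, the class with the lowest mean. Langerhans and mast cells were lower than macrophages as well. With each cell thinned to 1000 UMIs, Trim25 was found in 7.34% and 10.0% of Langerhans cells and 6.25% and 11.4% of mast cells. For macrophages these shares were 40.3% and 39.2%. Monocytes and macrophages overlapped, so no order between them can be read. Neutrophils, a class of 17 and 60 cells in control skin, led for 8 members, all of them genes of the chromosome 7 cluster. They stood clear of every library of every other class for 5 of them. The share of all genes that each class leads was not counted. The numbers of members led by a class, here and below, therefore cannot be set against all genes. Trim30a reached 3.39 and 2.88 in neutrophils against 0.695 and 1.47 in monocytes, the next class. Trim30d reached 2.26 and 1.88 there, against 0.508 and 0.339 in mast cells. Trim30b was the most restricted of the cluster genes, at 3.01 and 2.14 in neutrophils and 0.0869 and 0.0974 in monocytes, a 28.0-fold gap between means. Trim12a (1.88 and 1.14) and Trim12c (0.753 and 1.22) were likewise clear of the other classes in neutrophils. Trim34a (0.126 and 0.111), Trim5 (0.251 and 0.148) and Trim6 (0.251 and 0) were also led by neutrophils but met libraries of other classes. In control skin 1 these values lie below the level of 3 UMIs in neutrophils. The ninth gene of the cluster, Trim30c, overlapped between macrophages and neutrophils.

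Other members were led by lymphoid or dendritic classes. Trim24, a bromodomain corepressor, was highest in CD4 T cells (0.644 and 0.679), just clear of NK cells (0.510 and 0.642). Trim33, the bromodomain partner of Smad4, was spread evenly, with NK cells (1.02 and 1.33) and CD8 T cells (1.05 and 1.11) overlapping at the top and mast cells lowest at 0.423. Trim28, the corepressor of KRAB zinc finger proteins, was led by CD4 T cells (0.508 and 0.550), which overlapped with regulatory T cells (Treg, 0.465 and 0.559). Trim59 was highest in CD8 T cells (0.627 and 0.866), overlapping with CD4 T cells, and had no UMI in mast cells, which at 3 UMIs allows up to 0.508 and 0.203 there. Trim21 was a low gene led by CD4 T cells (0.0683 and 0.110).

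Among dendritic cells, conventional type 1 cells (cDC1) led for 5 members. Trim35 (1.15 and 0.970), Trim7 (0.230 and 0.454) and Trim3 (0.209 and 0.310) stood clear of every library of the other classes in cDC1. Trim35 was only just clear of mature dendritic cells (0.969 and 0.618). The Trim7 and Trim3 values of control skin 1 lie below the level of 3 UMIs in its neutrophils and mast cells. Trim41 (0.313 and 0.310) and Trim65 (0.146 and 0.124) were led by cDC1 as well but met single libraries of other classes. Trim26 was highest in mast cells (1.86 and 1.02 against 0.783 and 0.565 in NK cells), a class of 16 and 35 cells. DETC led for 7 members, clear of the others for Trim52 (0.0580 and 0.0716) and Trim71 (0.0226 and 0.0279), both at low levels in a class of 661 and 718 cells. The values of both genes lie below the level of 3 UMIs in mast cells, dermal gamma delta T cells and Treg, so these smaller classes cannot be ranked below DETC. Trim36 was led by CD4 T cells (0.547 and 1.27) and DETC (0.756 and 0.733), whose libraries overlapped. For Trim44 (NK, 0.656 and 0.436), Trim8, Trim37, Trim47 and Trim45 (mast), Trim27 and Trim62 (Treg), Trim11, Trim39, Trim13 and Trim68 (DETC), Trim56, Trim2 and Trim43c (ILC2), Trim17 and Trim29 (Langerhans), Trim14 and Trim30c (macrophage), Trim16 (cDC2), Trim23 (CD8), Trim46 and Trim32 (NK), Trim69 and Trim72 (dermal gamma delta T), and Trim54 (DETC), the leading class met at least 1 library of another class, apart from Trim45 at 0.169 and 0.0677. These Trim45 values lie below the level of 3 UMIs in mast cells.

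**Figure D1:**
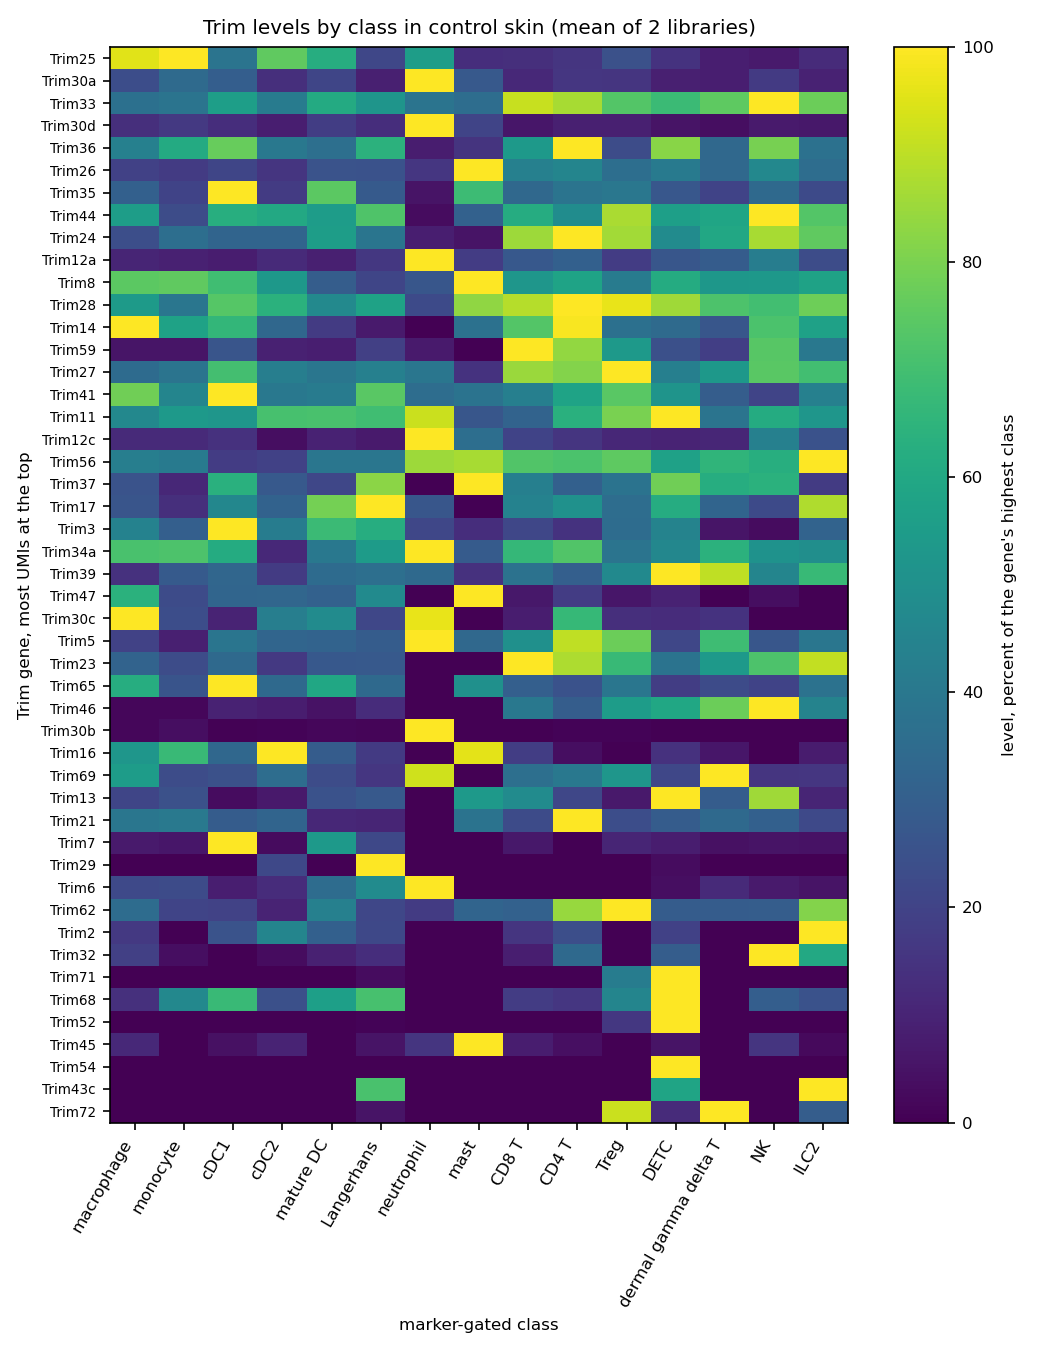
Mean level of each of the 48 Trim genes in 15 immune classes of control skin (2 libraries), as percent of the gene's highest class, with genes as rows and classes as columns. Trim30a, Trim30b, Trim30d, Trim12a and Trim12c peak in neutrophils, and Trim25 in monocytes and macrophages.

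The comparison the study was made for, 2323 tumor against control skin, was then read class by class. Of 528 pairs of a member and a class, 244 (39 members) passed the filter on low counts. It keeps a gene when as many libraries as a group holds, from either group or both, reach a minimum. In 13 pairs the member rose in tumors and in 1 it fell, at an adjusted p under 0.05 in the quasi-likelihood test of edgeR, with p-values adjusted by Benjamini-Hochberg over all genes of the class. The calls lay in 9 members and 6 classes. Over all genes and the 11 classes together, 1.93% of tests were called higher and 2.52% lower. Both tumors lay above both control skins in 32.5% of all tests and below in 19.1%. With library totals as the only scaling the split of calls was 16 higher and 0 lower.

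Trim30a, which restrains the signalling of Toll-like receptors to NF-kappa B, rose in the largest number of classes. In cDC2 its level was 0.416 and 0.435 in control skin 1 and 2 and 1.78 and 1.56 in 2323 tumor 1 and 2. In CD8 T cells it was 0.382 and 0.338 in control skin and 1.27 and 1.12 in tumors. In NK cells it was 0.492 and 0.565 against 2.27 and 1.42. The groups did not overlap in any of these classes. The fitted log2 differences, with their standard errors (SE), were 1.78 (SE 0.21, adjusted p = 0.0051, edgeR) in cDC2, 1.60 (SE 0.24, adjusted p = 0.0087) in CD8 T cells and 1.81 (SE 0.30, adjusted p = 0.0044) in NK cells.

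Trim30a rose in the other T cell classes as well. In CD4 T cells it went from 0.351 and 0.642 in control skin to 1.81 and 1.46 in tumors (log2 1.71, SE 0.29, adjusted p = 0.0154, edgeR). In Treg it went from 0.381 and 0.587 to 1.44 and 1.70 (log2 1.63, SE 0.30, adjusted p = 0.0464). Both tumors lay above both control skins in each. In cDC1 (1.11 and 0.774 against 2.88 and 2.21) and macrophages (0.588 and 0.884 against 1.94 and 1.38) the groups were also apart without passing the test, the latter at an adjusted p of 0.171. In monocytes (0.695 and 1.47 against 2.67 and 1.33) and neutrophils (3.39 and 2.88 against 5.84 and 3.20) they overlapped, and the neutrophils of control skin already held more Trim30a than the T cells of the tumors. Without control skin 1 the calls in CD4 T cells, NK cells and Treg were lost (adjusted p = 0.084, 0.053 and 0.101), and without control skin 2 the call in CD8 T cells (0.059). Stricter marker gates ended the calls in CD4 T cells and Treg (adjusted p = 0.080 and 0.223).

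Trim30d, the neighbour of Trim30a with a near-identical promoter stretch, rose in NK cells and cDC2. In NK cells its level was 0.164 and 0.128 in control skin and 0.765 and 0.534 in tumors (log2 2.12, SE 0.40, adjusted p = 0.0094, edgeR). In cDC2 it was 0.130 and 0.215 against 0.782 and 0.80 (log2 1.97, SE 0.32, adjusted p = 0.0113). The groups were apart in both classes. Trim30d reached the filter on low counts in NK cells in the tumors only, so a difference was needed for it to be tested there. In CD4 T cells it missed the threshold (adjusted p = 0.0576). The NK call was lost without control skin 1 (adjusted p = 0.053) and with DESeq2 (adjusted p = 0.056).

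**Figure D2:**
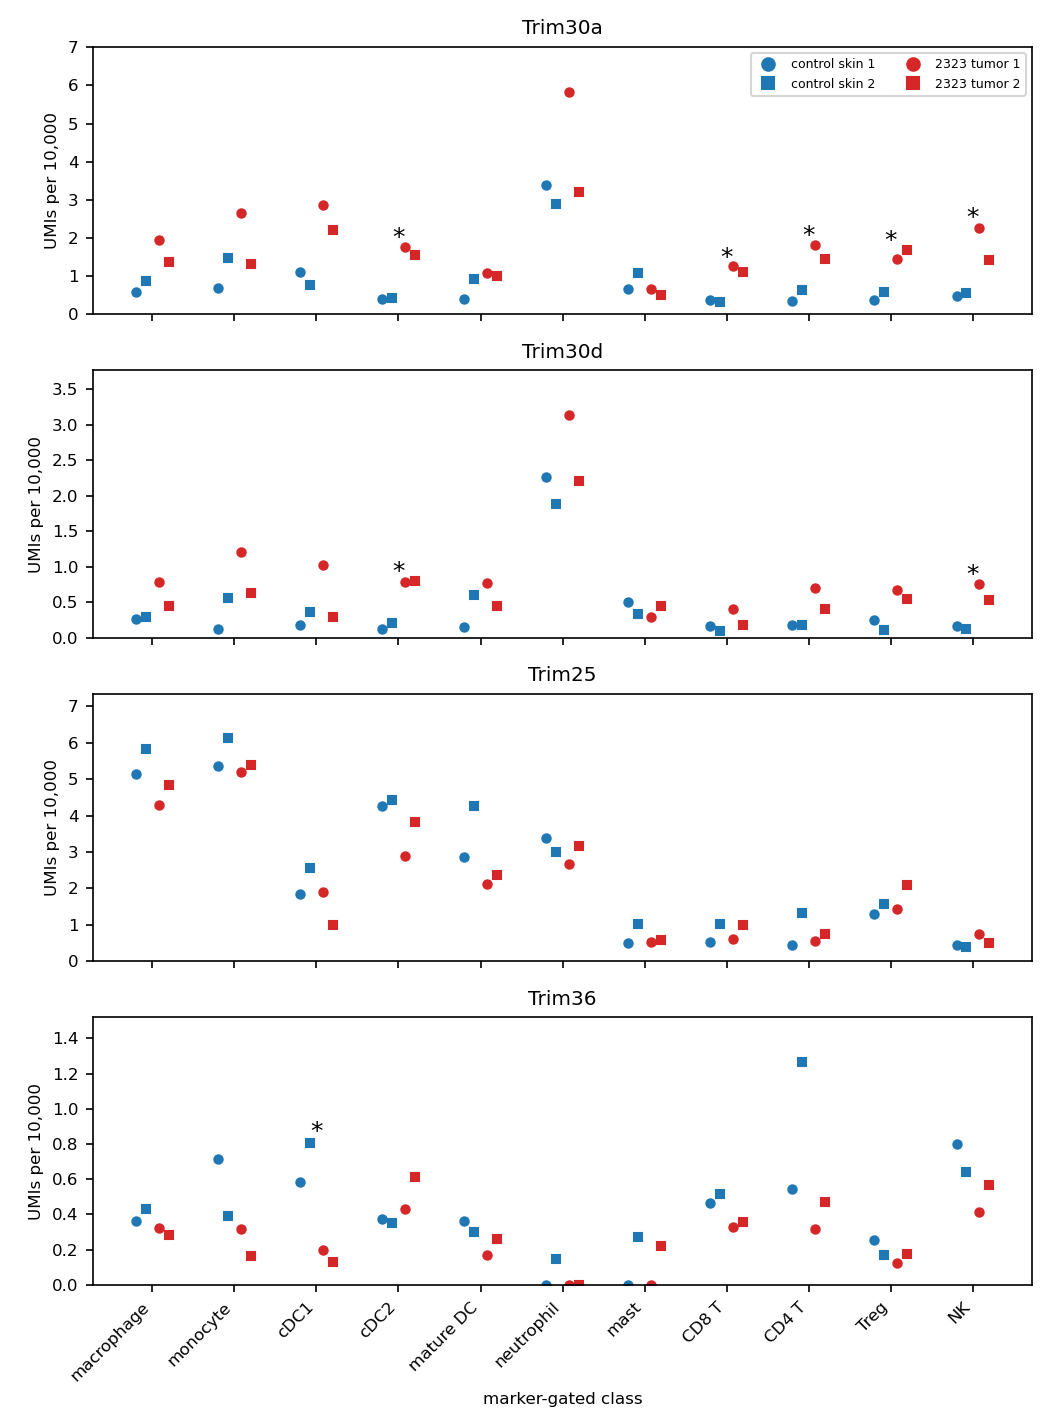
Level (UMIs per 10,000 UMIs of the class) of Trim30a, Trim30d, Trim25 and Trim36 in each library, for the 11 tested classes; points are libraries, colours are groups and an asterisk marks a class called at an adjusted p under 0.05. Trim30a carries 5 asterisks, Trim30d 2, Trim36 1 (cDC1, lower in tumors) and Trim25 none.

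The cDC2 held 7 of the 13 rises: beside Trim30a and Trim30d, these were Trim12c, Trim34a, Trim30b and Trim12a of the chromosome 7 cluster and Trim14. In that class 29 members were tested and 7 (24.1%) called, against 11.6% of all genes. Of these 7, 4 reached the filter on low counts in a library of each group, Trim14 in only 1 of control skin. Trim12c, Trim34a and Trim30b reached it in the tumors only, so a difference was needed for them to be tested. Trim12c stood at 0.0433 and 0.0316 in control skin and 0.490 and 0.286 in tumors (log2 3.24, SE 0.46, adjusted p = 0.0083, edgeR). Trim34a rose from 0.00866 and 0.0189 to 0.202 and 0.190 (log2 3.50, SE 0.58, adjusted p = 0.0124), but this rested on 1 and 3 UMIs in control skin against 61 and 10 in tumors. Trim12c rested on 5 and 5 UMIs in control skin against 148 and 15. The lowest cDC2 level of both genes in tumors was above the highest in control skin.

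Trim30b rose in cDC2 from 0.00866 and 0.0505 to 0.292 and 0.305 (log2 2.98, SE 0.59, adjusted p = 0.0217, edgeR), on 1 and 8 UMIs in control skin. Trim12a rose least, from 0.216 and 0.139 to 0.646 and 0.400 (log2 1.43, SE 0.36, adjusted p = 0.0453). Trim14, which lacks a RING finger and lies on chromosome 4 (46493781 to 46536141), rose from 0.0953 and 0.0568 to 0.484 and 0.286 (log2 2.23, SE 0.43, adjusted p = 0.0201). The groups did not overlap for any of the 3. The neutrophil genes S100a8 and S100a9 together were at 0.00866 and 0.316 per 10,000 in control skin and 0.0166 and 0.0381 in tumors of the same class.

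The cDC2 class itself differed between the groups. Its own markers (Cd209a, Mgl2 and Flt3) were at 18.02 and 17.95 UMIs per 10,000 in control skin and 9.70 and 12.7 in tumors, and monocyte markers (Ly6c2, Plac8 and Vcan) at 1.39 and 1.72 against 11.9 and 7.92. Among the cDC2 with no UMI of these 3 monocyte genes (42 and 62 cells in control skin, 26 and 11 in tumors), a subset chosen after seeing the data, 0 of 18 members tested were called. There Trim30a stood at 0.401 and 0.426 against 0.891 and 0.614 (log2 0.73, adjusted p = 0.289, edgeR), still without overlap, and Trim12c had a log2 difference of 2.69 (adjusted p = 0.064). No member was called in cDC2 without control skin 1, nor without control skin 2, while 13 were without 2323 tumor 2. Trim12c, Trim34a and Trim30b in cDC2, like Trim30d in NK cells, reached the filter on low counts in the tumors only, so that a difference was needed for them to be tested. Without these, 10 of the 14 calls are left, 9 of them rises, 4 of them in cDC2. Among the 10, Trim14 in cDC2 reached the filter in only 1 control skin, and Trim36 in cDC1 in only 1 tumor. For these 2 the lower group alone would not have passed the filter, so they are not free of this selection either. The Trim12a call also ended without 2323 tumor 1 (adjusted p = 0.159), with stricter gates (0.055) and with DESeq2 (0.134), and the Trim14 call without 2323 tumor 1 (0.082).

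Outside the interferon-related genes, 1 member rose and 1 fell. Trim44, an adaptor without a RING finger on chromosome 2 (102300119 to 102407828), stood at 0.293 and 0.239 in CD4 T cells of control skin and 0.841 and 0.656 in those of tumors (log2 1.39, SE 0.30, adjusted p = 0.0319, edgeR). Trim36, a ubiquitin ligase that binds microtubules, was lower in cDC1, at 0.584 and 0.805 in control skin and 0.195 and 0.132 in tumors (log2 -2.23, SE 0.41, adjusted p = 0.0298). Both differences were without overlap. The Trim36 value rested on 5 UMIs in 2323 tumor 2, whose cDC1 numbered 11, and the call was lost with library totals as the only scaling (adjusted p = 0.055) and without control skin 2 (0.148). The Trim44 call was lost without control skin 1 (0.086) or control skin 2 (0.090), with stricter gates (0.150), with all deposited barcodes (0.067) and with DESeq2 (0.130).

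At most 2 members were called in each of the other classes, near what the share over all genes gives. In CD8 T cells 1 of 29 members was called (all genes, 8.81%), in CD4 T cells 2 of 29 (7.13%), in Treg 1 of 22 (2.39%), in NK cells 2 of 20 (5.81%) and in cDC1 1 of 24 (1.79%). None was called in macrophages (38 tested, 7 at an unadjusted p under 0.05, all genes 0.964%), monocytes (25 and 5, 0.321%), mature dendritic cells (18 and 3, 4.34%), mast cells (1 and 1, 2.49%) or neutrophils (9 and 0, 0.0%) by edgeR, nor by DESeq2. Near misses by edgeR, beside Trim30d in CD4 T cells given above, included Trim12c in CD8 T cells (log2 1.45, adjusted p = 0.0502) and Trim65 in cDC2 (2.66, 0.0558). Trim34a in NK cells (2.37, 0.0566) and Trim14 in Treg (2.24, 0.0586) were others.

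**Figure D3:**
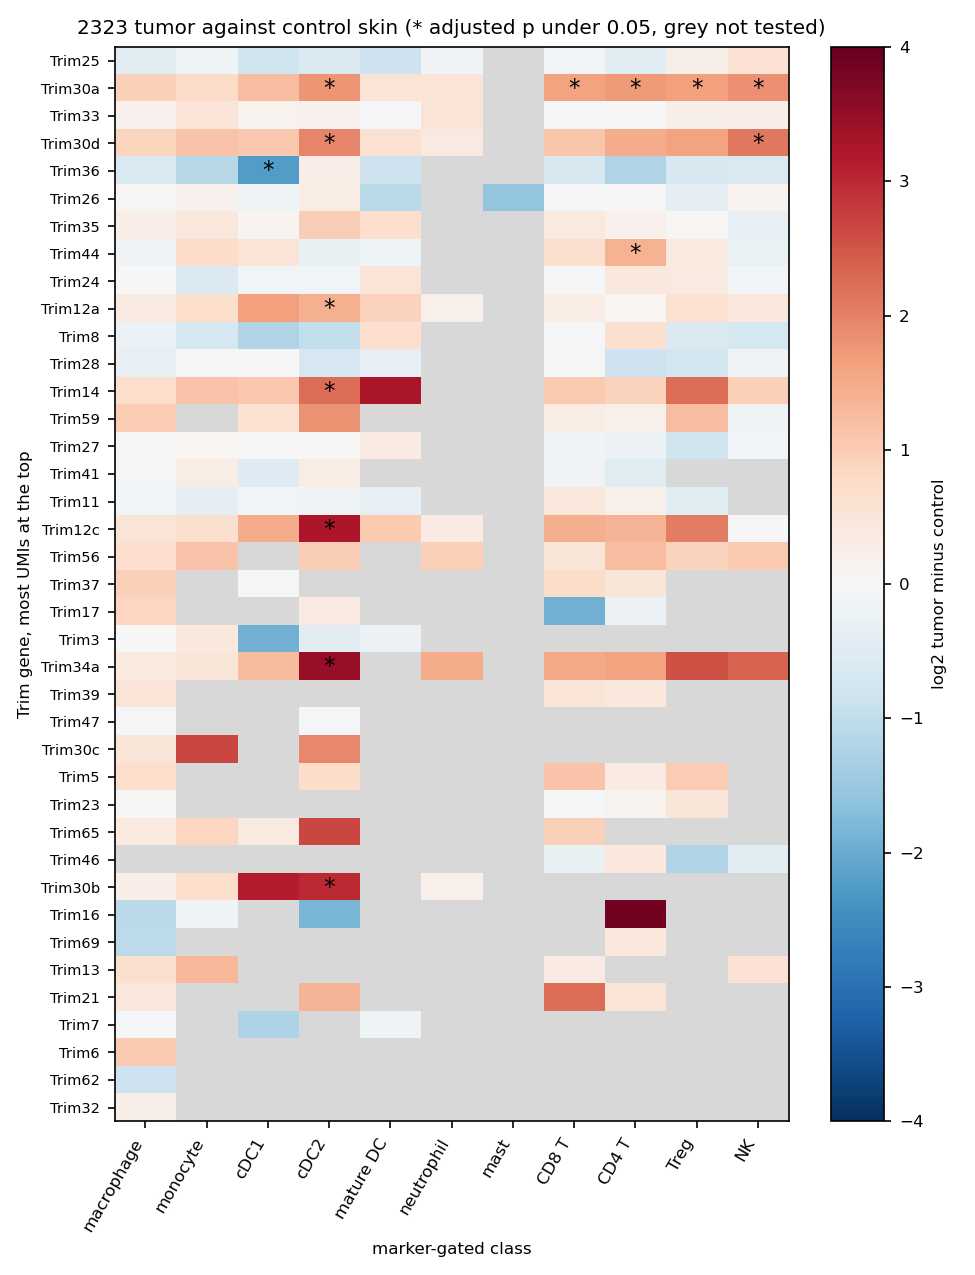
Log2 difference of 2323 tumor minus control skin for 39 Trim genes (rows) in 11 classes (columns), from 2 libraries per group; asterisks mark adjusted p under 0.05 and grey marks pairs not tested. The 14 asterisks fall in cDC2 (7), NK cells (2), CD4 T cells (2), CD8 T cells, Treg and cDC1 (1 each).

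The most abundant member did not rise with the others. Trim25 stood at 5.13 and 5.83 in macrophages of control skin and 4.29 and 4.83 in those of tumors, and at 4.26 and 4.44 against 2.88 and 3.83 in cDC2. Both tumors lay below both control skins in these 2 classes and in mature dendritic cells, and in NK cells (0.437 and 0.385 against 0.738 and 0.500) above them. No difference in Trim25 passed the test. Trim33 in NK cells (1.02 and 1.33 against 1.29 and 1.60) and Trim35 in cDC1 (1.15 and 0.970 against 1.12 and 1.63) overlapped. Of the bromodomain genes Trim24, Trim28 and Trim33, none was called in any class by edgeR, and their median log2 difference in macrophages was 0.00. Trim26 in mast cells, the only member tested there, stood at 1.86 and 1.02 against 0.369 and 0.369 (log2 -1.56, adjusted p = 0.219).

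The rises gathered in the chromosome 7 cluster, which held 11 of the 14 calls, or 7 of the 10 that reached the filter in a library of each group. Its members were above both control skins in both tumors in 46 of 63 tested pairs and below in 0. The other members were above in 64 and below in 36 of 181, and all genes were above in 32.5% and below in 19.1% of tests. The cluster pairs come from the same 4 libraries and include paralogs, so they are not separate observations. The cluster pairs, and the medians below, include Trim12c, Trim34a and Trim30b in cDC2 and Trim30d in NK cells. Those reached the filter on low counts in the tumors only, and pairs without a call were not checked for this. The share of the filter in these counts and medians is therefore not known. The median log2 difference of the cluster was 1.94 in cDC2, 1.81 in NK cells, 1.62 in Treg, 1.43 in CD4 T cells, 1.38 in cDC1 and 1.30 in CD8 T cells. It was 0.77 in mature dendritic cells, 0.72 in monocytes, 0.53 in macrophages and 0.34 in neutrophils. The medians over all genes lay between -0.02 and 0.06 in these classes. In macrophages 9 of the 9 members had a positive value and none was called. The difference between classes in the size of these values was not tested, except between macrophages and alpha beta T cells, for which the test is given further on.

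**Figure D4:**
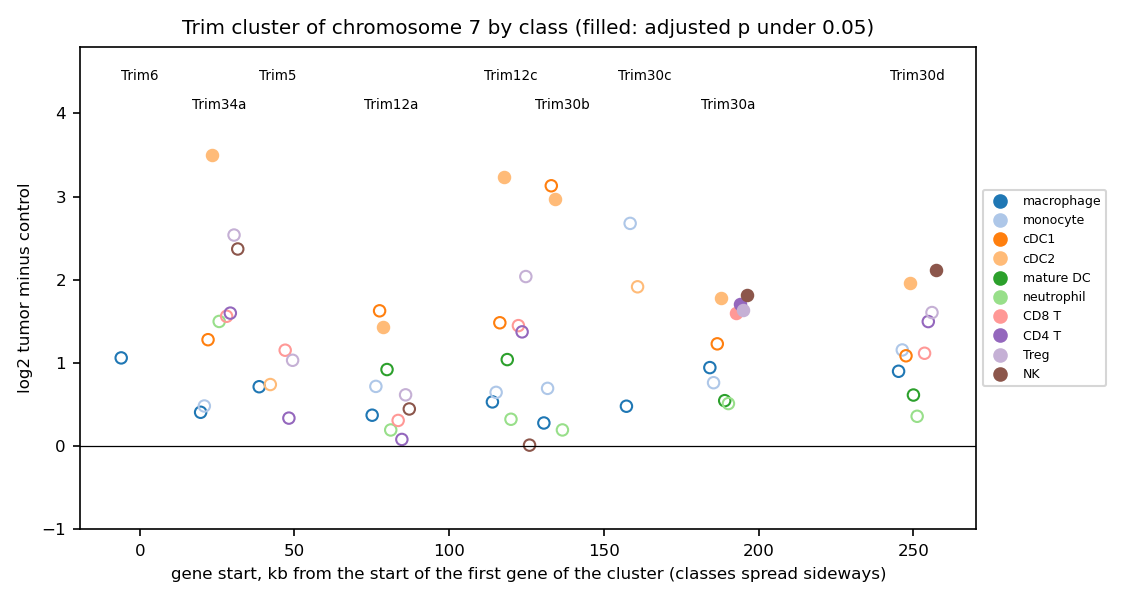
Log2 difference of 2323 tumor minus control skin for the 9 members of the chromosome 7 cluster, by distance in kb from the start of Trim6; each point is 1 class, and filled points passed an adjusted p of 0.05. Filled points appear for Trim34a, Trim12a, Trim12c, Trim30b, Trim30a and Trim30d, and none for Trim6, Trim5 and Trim30c.

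Genes of the wider pathway were read from a list of 20 genes of interferon and RNA sensing. The number called higher was 13 of 20 in cDC2 (all genes called in either direction, 11.6%), 9 of 19 in CD4 T cells (7.13%), 9 of 15 in NK cells (5.81%), 7 of 20 in CD8 T cells (8.81%) and 5 of 15 in Treg (2.39%), and none was called lower. It was 2 of 17 in mature dendritic cells, 1 each in macrophages (of 20), monocytes (of 19), cDC1 (of 12) and mast cells (of 4), and 0 of 15 in neutrophils. Irf7, a factor that amplifies the interferon response, rose in cDC2 (log2 3.17), CD8 T cells (2.04) and Treg (2.66), and Zbp1, a sensor of nucleic acids, rose in cDC2 (2.58), CD8 T cells (2.26), CD4 T cells (2.51) and NK cells (3.35); both were chosen after their values were seen. Among the Trim genes of the interferon list, 7 of 13 rose in cDC2 (median log2 1.78, all genes 0.04), 2 of 9 in NK cells, and 1 each in CD8 T cells (of 11), CD4 T cells (of 11) and Treg (of 10). The 7 in cDC2 include Trim12c, Trim34a and Trim30b, and the 2 in NK cells Trim30d, which reached the filter on low counts in the tumors only. In macrophages 13 of 14 were above 0 with a median of 0.50, and none was called.

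Stress genes of dissociation moved in the same direction in the classes with calls, at 11.7 and 13.5 UMIs per 10,000 in cDC2 of control skin against 50.1 and 84.2 in tumors, and at 5.80 and 6.07 against 51.9 and 38.5 in CD4 T cells. Macrophage RNA (C1qa, C1qb and C1qc) was at 0.128 and 0.257 in NK cells of control skin and 0.657 and 0.450 in those of tumors. It moved likewise in CD8 T cells (0.164 and 0.122 against 0.497 and 1.24), CD4 T cells (0.146 and 0.294 against 0.669 and 0.936) and Treg (0.211 and 0.168 against 0.459 and 0.902). The part of either in the Trim differences was not tested. Of tripartite motif genes with other symbols (Pml, Mid1, Mid2, Mefv and Rnf135), Mefv fell in cDC2 (log2 -1.47, SE 0.22, adjusted p = 0.0093, edgeR). Of 7 ubiquitin-conjugating and chromatin partners of Trim proteins, Cbx5, which encodes heterochromatin protein HP1 alpha, rose in CD8 T cells (log2 1.41) and CD4 T cells (log2 1.35).

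Within the same libraries, macrophages and alpha beta T cells (CD4 and CD8 together) were compared with the library as a block. Of 36 members tested, 22 passed the test, 11 higher and 11 lower in macrophages, against 26.9% and 24.5% of all genes. With library totals alone the split was 8 higher and 13 lower. This scaling moved the median of all genes by -0.31, and its part in the changed split was not tested. Trim25 was the most abundant of the macrophage genes, at 5.13, 5.83, 4.29 and 4.83 in control skin 1 and 2 and 2323 tumor 1 and 2 against 0.500, 1.15, 0.594 and 0.832 in T cells (log2 3.08, SE 0.19, adjusted p = 0.00014, edgeR). Trim47 was at 0.129, 0.175, 0.185 and 0.152 in macrophages and 0.0210, 0.0311, 0.00174 and 0.0130 in T cells (log2 3.99, SE 0.58, adjusted p = 0.0019). Every macrophage library was above every T cell library for both genes.

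The next macrophage genes were Trim30c (log2 3.13), Trim30b (2.31), Trim3 (1.69) and Trim16 (1.42, adjusted p = 0.0482, edgeR). Trim3, an NHL repeat protein, was at 0.129, 0.100, 0.124 and 0.135 in macrophages against 0.0420, 0.0545, 0.0331 and 0.0715 in T cells, without overlap. Trim30c met the T cell range in control skin 1, at 0.0403 in macrophages, against 0.0140 to 0.0545 in T cells. Trim41, Trim30d, Trim65, Trim30a and Trim8 followed with log2 values of 1.18 to 0.55. The Trim16 call was kept in 3 of 12 alternatives (highest adjusted p = 0.120) and was lost without any 1 of the 4 libraries, and those of Trim65 and Trim8 were kept in 7 of 12 (highest 0.106 and 0.304).

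The T cell genes were led by Trim46, which organises microtubules in axons, at 0.157, 0.109, 0.124 and 0.176 in T cells against 0.00806, 0.00572, 0.00296 and 0.0107 in macrophages (log2 -4.30, SE 0.38, adjusted p = 0.00031, edgeR). Trim59, a membrane-anchored ligase, was at 0.633, 0.755, 0.920 and 0.852 in T cells against 0.0403, 0.0458, 0.129 and 0.0754 (log2 -3.15, SE 0.24, adjusted p = 0.00021). Trim24 was at 0.616, 0.592, 0.666 and 0.826 against 0.137, 0.180, 0.233 and 0.142 (log2 -1.65, SE 0.21, adjusted p = 0.0012). All 3 were without overlap in all 4 libraries. Trim23 (-1.26), Trim5 (-1.25), Trim12a (-0.94), Trim39, Trim33, Trim26, Trim27 and Trim12c (-0.69) made up the rest, of which Trim39 and Trim12c kept their calls in 8 of 12 alternatives. The chromosome 7 cluster was split: Trim30a, Trim30b, Trim30c and Trim30d were higher in macrophages, and Trim5, Trim12a and Trim12c in T cells.

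**Figure D5:**
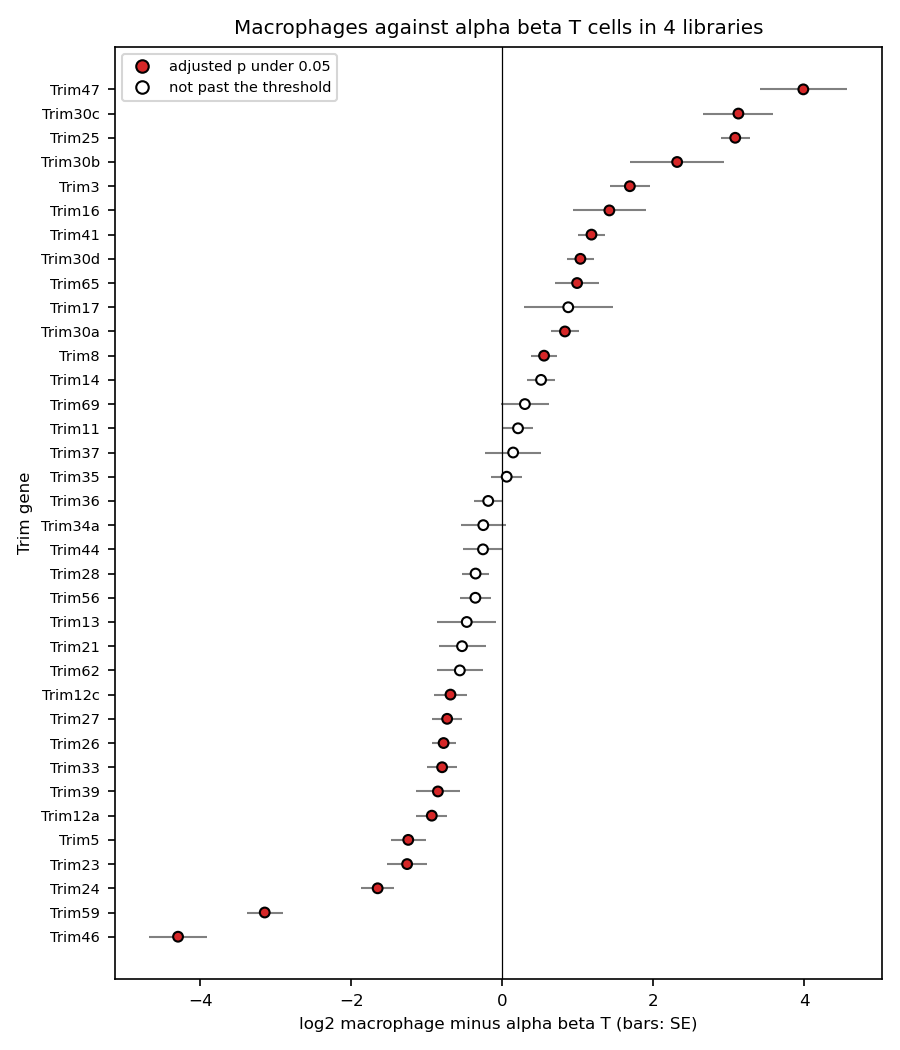
Log2 difference of macrophages minus alpha beta T cells with its standard error for 36 Trim genes, from 4 libraries with the library as a block; red points passed an adjusted p of 0.05. Trim47 lies highest at 3.99 and Trim46 lowest at -4.30, with 11 red points on each side of 0.

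Whether the tumor difference itself differed between macrophages and alpha beta T cells was tested by an interaction term. None of 38 members passed by edgeR, 5 had an unadjusted p under 0.05, and DESeq2 also called 0, while 0.792% of all genes were called.

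Cycling cells, gated by Mki67 and Top2a, were compared with the other cells of their class. In macrophages of the 2 tumors (187 and 34 cycling cells), 4 of 39 members (10.3%) passed the test, close to the 10.1% of all genes. Trim28 was at 0.505 and 0.448 in cycling cells and 0.225 and 0.236 in the others (log2 0.95, SE 0.18, adjusted p = 0.0025, edgeR). Trim59 was at 0.275 and 0.140 against 0.105 and 0.0697 (log2 1.14, SE 0.25, adjusted p = 0.0079). Trim37, which limits centriole assembly, was at 0.259 and 0.233 against 0.116 and 0.124 (log2 0.94, SE 0.23, adjusted p = 0.0157). These 3 were higher in cycling cells of both tumors, whereas Trim25 was lower, at 3.81 and 3.31 against 4.37 and 4.96 (log2 -0.50, SE 0.13, adjusted p = 0.0185). Cycling macrophages had a median of 30245 and 32030.5 UMIs per cell against 18339 and 18866. The gate counts UMIs of Mki67 and Top2a without scaling for depth, so cells with more UMIs pass it more easily. All 4 calls were lost without the library block, those of Trim37 and Trim59 also with DESeq2 and that of Trim25 with library totals alone.

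In alpha beta T cells, Treg included, Trim28 was the only one of 30 members to pass, against 16.5% of all genes. It was at 0.626, 0.673, 0.555 and 0.550 in cycling cells of control skin 1 and 2 and 2323 tumor 1 and 2 and at 0.374, 0.522, 0.324 and 0.239 in the others (log2 0.74, SE 0.19, adjusted p = 0.0278, edgeR). Cycling cells were higher in each of the 4 libraries. Their median UMIs per cell were 18931.5, 17405.5, 20086 and 20222.5, in the same order of libraries, against 9396, 9584, 8369 and 8384 in the others. The limit of the unscaled gate given for macrophages therefore holds here too. The mix of CD4, CD8 and Treg was not compared between cycling and other cells. The call was lost without control skin 1 (adjusted p = 0.085), 2323 tumor 1 (0.142) or 2323 tumor 2 (0.118), and with DESeq2 (0.065).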

How the data were processed

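Immune (CD45+) cells of 2 control skins and 2 2323 tumors were profiled with droplet 3' libraries. The files that the authors deposited hold raw UMI counts of each gene in each cell, 1 matrix per library, made on mouse build mm10 with Cell Ranger (7.1.0 per the submitters' processing notes, 7.0.1 per the file headers). How intronic or multi-mapped reads and strand were treated is not given in the sources used here. Cells with at least 100 genes, 1000 UMIs, at most 15% mitochondrial UMIs and a log10 gene to log10 UMI ratio of at least 0.8 were kept. Cells were gated by marker UMIs. The markers were listed first and the UMI thresholds were set after their distributions had been seen. Cells with markers of 2 lineages (doublets among them) or with keratin or collagen transcripts were left out, and no other doublet removal was made. This gating differs from the clustering of the study. Counts were summed per library and class, and classes with at least 10 cells in each library were tested with edgeR 4.0.16 (TMM factors, filterByExpr, quasi-likelihood test, Benjamini-Hochberg adjustment over all genes of a class, threshold 0.05). The SE is the log2 difference divided by the root of F. Levels are per library total: compared with the fit, library totals moved the median of all genes by 0.21 in cDC2, 0.25 in cDC1, 0.20 in macrophages, 0.15 in mature dendritic cells, 0.13 in CD8 T cells, -0.29 in mast cells and 0.12 in cycling macrophages. DESeq2 1.42.0 and other settings were alternatives.

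The members and lists were chosen with earlier results of these data known. Named genes were the 10 members with the most UMIs, the measured interferon-inducible members, each member called between tumor and control skin or between cycling and other cells, and the 6 largest differences in each direction between macrophages and alpha beta T cells; other members were placed by their leading class. The interferon-inducible members were Trim5, Trim6, Trim12a, Trim12c, Trim14, Trim21, Trim25, Trim26, Trim30a, Trim30b, Trim30c, Trim30d, Trim34a, Trim34b and Trim56. Coordinates are from GENCODE on GRCm38 and promoter sequences from RefSeq on GRCm38.p6. On simulated data with 200 genes changed 4-fold the fits for tumor against control skin recovered 57.5% (mast cells) to 92% (NK cells) of them. In macrophages, the only class checked, replicate libraries differed by more than the sampling noise of UMIs. The noise from sampling cells was not assessed. As 2 libraries make a group, p-values measure only the spread between these libraries. Some items of the design and of the gene lists are not reported here by name.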

Additional observations from a re-analysis of the deposited data

Results flagged for a closer look

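The libraries of Trim36 were apart in opposite directions in different classes, although the difference passed the test in cDC1 only. Its log2 difference of 2323 tumor minus control skin was -0.6023 in macrophages, -1.124 in monocytes, -2.228 in cDC1, -0.816 in mature dendritic cells, -0.645 in CD8 T cells, -1.205 in CD4 T cells and -0.6242 in NK cells, with both tumors below both control skins in each, and 0.2672 in cDC2, with both tumors above. The difference between the classes was not tested. Of 36 members tested in 2 or more classes, 11 (30.6%) had such opposite separations in some pair of classes, against 40.8% of 10090 genes, and of these 11 members Trim36 was the one with a called difference. Opposite separations are thus common among all genes here.

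Cells that met no marker gate, used in no comparison, also held higher levels of most members that rose. The mean level in the 2 tumors over that in the 2 control skins was 2.34 for Trim12c, 2.948 for Trim14, 3.506 for Trim30a, 4.522 for Trim30b, 4.688 for Trim30d and 3.778 for Trim34a, with both tumors above both control skins. These were 6 of the 8 members called higher. The cells come from the same libraries as the calls, so they are not separate observations. Trim12c, Trim34a and Trim30b in cDC2, and Trim30d in NK cells, reached the filter on low counts in the tumors only. Trim12a (0.465 and 0.381 in control skin, 0.536 and 0.374 in tumors) and Trim44 (0.429 and 0.456, 0.684 and 0.409) overlapped. Of 12235 genes with at least 50 UMIs in these cells, 42.8% had both tumors above both control skins. The class makeup of these cells is not known, so the ratios can hold a difference in makeup as well as in level. Outliers were not looked for, as groups of 2 libraries are too small.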

How the results depend on the processing

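No single result reversed its direction under any alternative tried. The 14 calls of tumor against control skin became 40 without the filter on low counts and 4 to 43 when 1 library was left out (4 without control skin 1, 43 without 2323 tumor 2), and 12 to 18 under other scalings, stricter gates, DESeq2, without the 5% of cells with most UMIs or with all deposited barcodes. Of 184 values of the 14 calls under alternatives, 143 stayed past the threshold and 41 did not. Same-numbered libraries did not deviate together in most classes (correlations of -0.174 to 0.124 over classes), and the labels do not say that a number marks a shared animal, batch or day, so the libraries were not taken as pairs. With a replicate block 15 pairs were called, Trim30a in Treg and Trim12a in cDC2 being lost. As 1 class (cDC1) had a correlation under -0.1, the crossed pairing was added after seeing the data and called 19 pairs, Trim44 in CD4 T cells being lost. The 22 calls of macrophages against alpha beta T cells ranged from 16 to 22, with 17 called with no replicate block. Of 4 calls in cycling macrophages, 2 were made by DESeq2 and 0 with no replicate block, and leaving out a library could not be fitted. The 1 call in cycling alpha beta T cells became 2 with DESeq2 size factors, 0 with DESeq2, 3 without the filter, 2 with stricter gates, 2 without the 5% of cells with most UMIs, 0 with no replicate block and 0 to 2 without 1 library (0 without control skin 1, 2323 tumor 1 or 2323 tumor 2). The causes of these changes were not tested. A minimum of 20 or 200 UMIs gave 51 or 44 members. Classes of 11 to 35 cells in some libraries and members with few UMIs, such as Trim34a and Trim30b, limit what can be detected.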
